A study of Mus musculus with 5 samples.

Results

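The cells described here are Lyz2+ Tyrobp+ Csf1r+ cells without a Clec4f transcript in the liver of mice given a carcinogen and a Western alcohol diet. A cell was included with at least 1000 UMIs (unique molecular identifiers, each 1 captured RNA molecule), at least 2 UMIs each of Lyz2 and Tyrobp and at least 1 of Csf1r. It had 0 UMIs of Clec4f and of Cd3e, and Dcn, Col3a1 and Colec11 together stayed under 20 per 10000 UMIs. In the library labelled DEN+WAD VitA-Col1a1-, 367 of 9870 cells met these limits (3.72%, exact 95% interval 3.35 to 4.11%), out of 24007 cells in the whole series. They were compared with the 682 cells of the same library that had a Csf1r UMI, at least 1000 UMIs and at least 2 Clec4f UMIs, called Clec4f-positive here.

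All mice of the series were male, carried Rosa26mTmG;Col1a1-Cre and were on a C57BL/6J background. In this model a green reporter replaces a red one in cells in which the Col1a1 promoter has driven Cre. DEN+WAD mice received diethyl nitrosamine (DEN), a liver carcinogen, at 10 mg/kg at 2 weeks of age, followed from 6 weeks of age by 5 months of liquid Western alcohol diet (WAD) with 3.5% v/v ethanol. Controls received saline and chow. Non-parenchymal cells were sorted by stored vitamin A (VitA) and the reporter, and every gate was 1 library, so nothing below has a replicate check and no p-value was computed. The number of mice behind a library is not given in the sources used here. The labels name hepatic stellate cells as the cell type of every library, whereas the cells described here were chosen by myeloid genes and capped for stellate ones. Their stellate RNA is given below.

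Kupffer cells are the macrophages that live in the liver sinusoid, where they clear particles and aged red cells from portal blood. In the mouse they are marked by Clec4f, a lectin of the C-type family, together with Vsig4, Timd4 and Marco. Classical monocytes, which carry Ccr2 and Ly6c2, enter an injured liver from blood and can become macrophages that at first lack Clec4f. Some of them take on a lipid-associated state, with Trem2, Gpnmb and Spp1, while non-classical monocytes patrol the vessel wall and depend on Nr4a1.

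The other 4 libraries, all sorted as Col1a1+, held 0 cells that met the rule. Taken as 3 counts, a count of 0 allows a share of up to 0.0286% of the DEN+WAD VitA+Col1a1+ cells and 0.110% of the DEN+WAD VitA-Col1a1+ cells. For the chow libraries, which were smaller, the limits were 1.16% (VitA+Col1a1+) and 0.449% (VitA-Col1a1+). The exact upper 95% limits, in the same order, were 0.0352%, 0.135%, 1.41% and 0.551%. The sort sets these numbers, and chow and DEN+WAD could not be compared for these cells. Of the 367 barcodes, 1 was also present in another library.

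Each limit of the rule removed cells in turn, from 9040 with enough UMIs to 2148 after Lyz2, 1242 after Tyrobp, 1110 after Csf1r and 1028 after the limits on Cd3e and on the stellate genes. Clec4f then divided these 1028 cells. It was at 0 UMIs in 367 cells, at exactly 1 in 50 and at 2 to 4 in 31, whereas 210 cells had 100 or more. Between these ends, 37 cells had 5 to 9 UMIs, 49 had 10 to 19, 123 had 20 to 49 and 161 had 50 to 99. The 50 cells with 1 Clec4f UMI stood just outside the rule, as did 50 that lacked only Csf1r. Just inside it, 32 members had a single Csf1r UMI, 10 had exactly 2 Lyz2 UMIs and 8 exactly 2 Tyrobp UMIs.

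**Figure D1:**
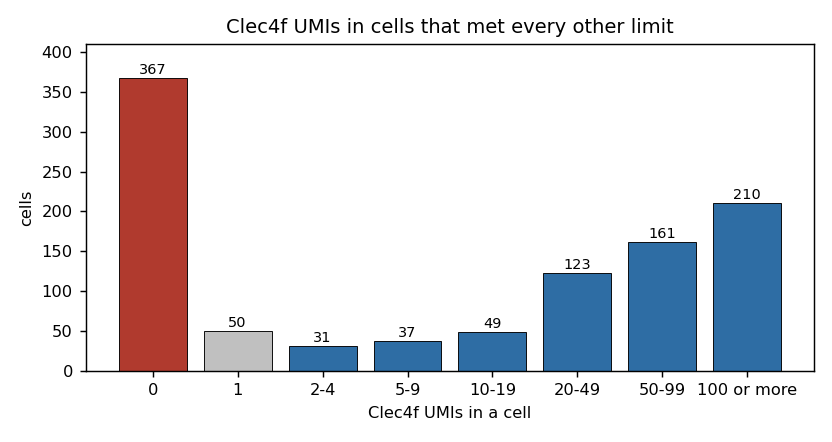
Number of cells (vertical axis) by Clec4f UMIs per cell (horizontal axis), among the 1028 cells that met every other limit of the rule. The red bar is the 367 Clec4f-negative cells, the grey bar the 50 cells with 1 UMI, and the blue bars are cells with 2 or more, of which 210 had 100 or more.

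Members were shallower than the cells they were compared with. They held a median of 12972 UMIs per cell (range 1076 to 78788) against 20047 (1011 to 59182). Levels are therefore given as CPM, the UMIs of a gene summed over a class and scaled to 1000000, with exact Poisson 95% intervals that cover counting error only. To set shares of cells side by side, every cell was thinned to 2000 UMIs, which left out 9 members, and full-depth shares are added for the main genes. As a measure of free RNA, the same shares are given for 2127 endothelial cells of this library (at least 2 UMIs each of Stab2 and Ptprb, 0 of Csf1r, median 8430 UMIs). Clec4f itself was found in 91.9% of thinned Clec4f-positive cells and in 3.18% of thinned endothelial cells, or 10.9% of them at full depth.

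The sequence beside the start of these genes is shown for a short motif shared by genes on both sides of the comparison. GGAAGT, read on either strand, is the core letters of many sites of PU.1, the ETS-family factor that macrophages and monocytes need. The letters occurred in the 250 bases before the start in 19.7% of all 32851 RefSeq promoters of GRCm38.p6, and in at least 1 promoter of 22.2% of 27025 genes. Among the 15 genes named below as higher in members, 13 had a promoter in the table and 3 of these held the motif, namely Chil3, Il7r and Spp1. Of the 15 named as lower, 8 had a promoter and 4 held it, namely Folr2, Pcolce2, Timd4 and Vsig4. Stretches of 30 bases are printed 5′ to 3′ on the gene's strand, with the motif in capitals, ACTTCC being the same motif on the opposite strand.
Chil3 (chr3:106167607-106167636, minus strand): ttattcgcaaacACTTCCttttccaaactt
Spp1 (chr5:104434988-104435017, plus strand): aaaaccagaggaGGAAGTgtaggagcaggt
Vsig4 (chrX:96293484-96293513, minus strand): acggaaggtgggGGAAGTgtgtgaggaaac
Timd4 (chr11:46810715-46810744, plus strand): tgcggcagaaagGGAAGTgaaagttgagcg
Clec4f (chr6:83656132-83656161, minus strand): gaggcaggtttgGGAAGTtgtcctgacctc
Both genes with higher and genes with lower levels in members thus held these letters, and a match is a description of the sequence, not a binding site. The Clec4f stretch lies before the RefSeq start but inside the gene as GENCODE M21 places it (chromosome 6, 83644542 to 83656187, minus strand).

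The label of these cells was checked against its 4 markers. Lyz2, a lysozyme of phagocytes, ran from 86.0 CPM in the lowest member to a median of 5130 and a highest value of 53013, and Csf1r, the receptor that macrophages need to survive, from 33.2 over 617 to 4647 CPM. Both were part of the rule. Ccr2 and Cx3cr1, which were not, were found in fewer than 1 in 2 members even at full depth. Ccr2, the receptor with which monocytes leave bone marrow and enter tissue, was found in 17.9% of thinned members (14.1 to 22.3%) and 42.5% at full depth. The thinned share was 1.83% in Clec4f-positive cells, and it was 0 of 2105 in endothelial cells. Cx3cr1, the receptor for fractalkine on monocytes and on some resident macrophages, was found in 21.8% of thinned members against 2.59% and 0.143%, and in 46.3% of members at full depth. The name macrophages and monocytes thus covers a mixture, and 17 of the 367 cells carried dendritic cell genes, as described below.

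Across all genes with a mean of at least 10 CPM over the classes, 142 of 7353 were at least 2-fold higher in members (1.93%) and 278 were at least 2-fold lower (3.78%). The median log2 ratio of members over Clec4f-positive cells was -0.07. These counts describe the classes that the rule drew, without a test. The rule also capped stellate genes in members and not in Clec4f-positive cells. With Clec4f-positive cells held to the same Lyz2, Tyrobp, Cd3e and stellate limits (611 cells), 161 of 7211 genes were higher (2.23%) and 170 lower (2.36%).

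S100a4, a calcium-binding protein of motile leukocytes (chromosome 3, 90603771 to 90606045, plus strand, GRCm38), headed the higher genes. It stood at 129 CPM (120 to 139) in members and 2.49 CPM in Clec4f-positive cells, a ratio of 51.8 (36.91 to 74.95), or 94.9 (58.9 to 163.9) against Clec4f-positive cells held to the same limits. It was absent from 286 of the 367 members, and the highest member reached 3905 CPM. Chil3, a secreted chitinase-like protein of classical monocytes, was at 48.6 CPM in members and at 0 UMIs over all Clec4f-positive cells. With that class set at a floor of 3 UMIs the ratio was 227, whereas the exact lower 95% limit of the ratio was 183.7. The Chil3 UMIs came from 28 members.

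The next higher genes include receptors, a transcription factor and an adaptor. Ccr2 was at 98.7 CPM against 7.55 (ratio 13.1, 10.6 to 16.3) and Cx3cr1 at 124.5 CPM against 17.7 (ratio 7.05, 6.096 to 8.18). Runx3, a transcription factor of lymphocytes and some mononuclear phagocytes, was at 55.2 CPM against 1.21, a ratio of 45.6, or 76.7 under the same limits. Clec4e, the lectin Mincle, which senses mycobacterial glycolipid and dead cells, was at 40.9 CPM against 1.35, and Lat2, an adaptor below immune receptors, at 87.7 against 8.19. H2-M2, a non-classical class I gene, was at 138 CPM against 9.18 (ratio 14.97, 12.4 to 18.2). Each of these 6 genes was at 1.54 CPM or less in the endothelial cells.

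The remaining higher genes named by rule differed in kind. Spp1, the secreted phosphoprotein osteopontin, was at 260 CPM against 24.8 (ratio 10.5, 9.34 to 11.8), but the endothelial cells also held 119 CPM of it. Napsa, an aspartic protease, stood at 65.9 CPM against 6.05, Il7r, a receptor chain for interleukin 7 and TSLP, at 52.6 against 5.70, Hal, histidine ammonia-lyase, at 38.1 against 3.28, and Syngr1, a vesicle protein, at 56.6 against 7.05. Fabp1 and Afp, a fatty acid carrier of hepatocytes and a fetal liver protein, were also on the list, at 98.3 against 11.96 CPM and at 42.6 against 4.56 CPM. Without 13 members rich in endothelial-list or hepatocyte-list RNA, the log2 ratio of Fabp1 went from 3.04 to 0.36 and that of Afp from 3.23 to 0.21. Fabp1 is itself on the list by which cells rich in hepatocyte RNA were picked, and Afp is not. In the cluster where Afp was among the leading genes, it came from 1 cell.

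Several of the lower genes are known from the resident Kupffer cell. C6, the sixth component of complement (chromosome 15, 4727175 to 4814967, plus strand), was at 7.69 CPM in members and 295 in Clec4f-positive cells, 38.3-fold higher in the latter (28.5 to 52.9). Marco, a scavenger receptor for bacteria, was at 43.7 CPM against 782, and Timd4, the receptor for phosphatidylserine on dying cells, at 10.1 against 181. Marco reached 6420 CPM in 1 member but was at 0 in 343 of 367, and Timd4 was at 0 in 354.

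Vsig4, which binds complement C3b and is used as a Kupffer cell marker, was at 160 CPM in members against 1201, a fold of 7.52 (7.04 to 8.05). Vsig4 was found in 8.94% of thinned members, 71.1% of thinned Clec4f-positive cells and 1.19% of thinned endothelial cells. Folr2, a folate receptor of resident macrophages, was at 137 CPM against 882, and Apoc1, a lipoprotein component, at 394 against 2526. Ccl24, an eosinophil attractant, was at 12.1 CPM against 171, Colec12, a scavenger receptor with a collagen domain, at 3.84 against 68.2, and Pcolce2, which enhances procollagen processing, at 19.04 against 142. Ptgis, prostacyclin synthase, was at 3.14 CPM against 44.8. Each of these kept a fold of more than 6 when Clec4f-positive cells were held to the same limits.

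The other 5 lower genes, Col14a1, Sod3, Sparc, Col1a1 and Col1a2, are genes of stellate cells and fibroblasts or of matrix. Col1a1 was at 6.99 CPM in members and 70.3 in Clec4f-positive cells, but at 7.92 CPM in the 611 Clec4f-positive cells held to the same limits, a ratio of 0.882 (0.595 to 1.29). For all 5 the ratio under those limits lay between 0.786 and 0.999, whereas against all Clec4f-positive cells it was 0.145 or less.

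**Figure D2:**
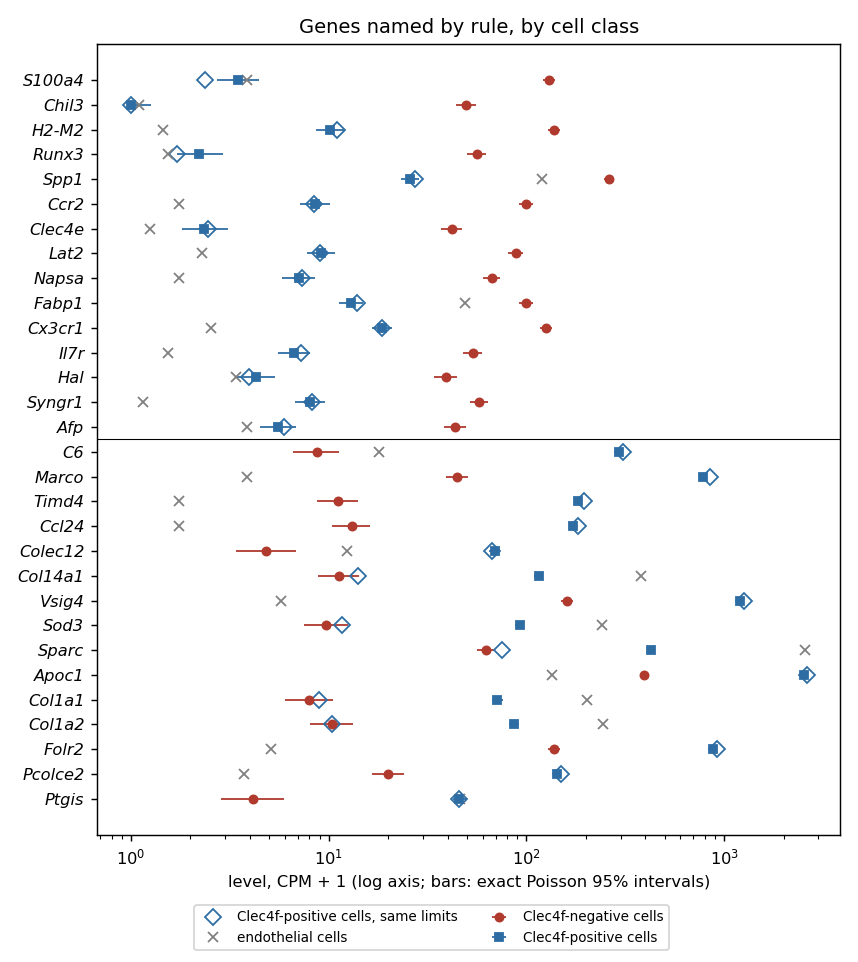
Levels of the 30 genes named by rule, in CPM + 1 on a log axis, with exact Poisson 95% intervals, in Clec4f-negative cells (red circles), Clec4f-positive cells (blue squares), Clec4f-positive cells held to the same limits (open diamonds) and endothelial cells (crosses). The 15 genes above the line are higher in Clec4f-negative cells. Among the 15 below it, the open diamond lies next to the red circle for Col14a1, Sod3, Sparc, Col1a1 and Col1a2.

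Gene lists were read by how many of their genes passed the 10 CPM filter and the 2-fold limit, beside the 1.93% and 3.78% of all genes. Of the classical monocyte list, 9 genes passed the filter, 6 were at least 2-fold higher, 0 lower, and the median log2 ratio was 2.93. Ly6c2, the antigen that defines these cells, was at 35.5 CPM with 203 UMIs, against 2 UMIs in Clec4f-positive cells (ratio 249, 68.1 to 2070). F10, coagulation factor X, was at 43.3 CPM against 5.70, and Hp, haptoglobin, at 85.6 against 18.01. Plac8, also on the list, was at 355 CPM against 251, below the 2-fold limit.

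For recruited macrophages, 7 of 10 list genes were at least 2-fold higher and 0 lower (median log2 ratio 1.55). They included Ms4a7, a membrane protein of monocyte-derived macrophages, at 433 CPM against 128, and Itgam, the CD11b integrin, at 20.8 against 8.19. The list of actin regulators and S100 proteins, which marks cells that migrate, had 8 of 16 genes higher and 0 lower. Emb, embigin, was at 34.2 CPM against 2.78 and Lsp1, an actin-binding protein of leukocytes, at 105 against 18.2. S100a6, Lgals1 and Ahnak are also expressed by stellate cells, and their ratios of 4.89, 4.39 and 2.16 became 13.5, 8.999 and 7.43 against the cells held to the same limits.

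The lipid-associated macrophage list had 5 of 14 genes higher and 0 lower, with a median log2 ratio of 0.50. Trem2, the lipid-sensing receptor of this state, was at 412 CPM against 128 (ratio 3.22, 3.03 to 3.42), and was found in 38.3% of thinned members, 15.2% of thinned Clec4f-positive cells and 0.475% of endothelial cells. Gpnmb, a lysosomal glycoprotein, was at 839 CPM against 295, and Itgax, the CD11c integrin, at 145 against 56.7. Fabp5, a fatty acid carrier, was at 1735 CPM against 364, although endothelial cells held 797 CPM. Lpl, lipoprotein lipase, was on the same list and was at 1448 CPM against 1485, a ratio of 0.975.

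Of the 17 Kupffer cell genes past the filter, 10 were at least 2-fold lower in members and 0 were higher (median log2 ratio -1.63). Cd5l, a secreted scavenger protein, was at 3630 CPM (3581 to 3680) against 7607. Its spread was wide, with no Cd5l UMI in 139 members and 19352 CPM in the highest. The log2 ratio of Cd5l was -1.07, close to the limit, and came to -0.98 with median-of-ratios size factors and to -2.13 without the Kupffer cell-like members described below. Slc40a1, the iron exporter ferroportin, at 650 CPM against 1212, and Spic, the transcription factor of heme-handling macrophages, at 113 against 124, missed the limit. The lists of the macrophage core (Adgre1, Cd68, Mertk, C1q and others), of lysosomal genes and of MHC class I genes each had 0 genes past the limit in either direction.

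MHC class II genes, which present antigen to CD4 T cells, were all under the 2-fold limit (0 of 10 past it). The main ones were nevertheless higher in members beyond counting error. H2-Aa was at 5736 CPM (5674 to 5798) against 3602, H2-Ab1 at 5370 against 3317, and Cd74, the invariant chain, at 12838 against 7439. In the type I interferon list 3 of 12 genes were lower, Irf7 at 182 CPM against 377, Ifit1 at 9.78 against 22.6 and Cxcl10 at 62.5 against 135, and 0 were higher. In the complement list 6 of 14 genes were lower, among them C2 at 4.02 CPM against 36.5 and Cfp, properdin, at 483 against 980. Against Clec4f-positive cells held to the same limits, 2 interferon list genes and 5 complement list genes were lower.

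**Figure D3:**
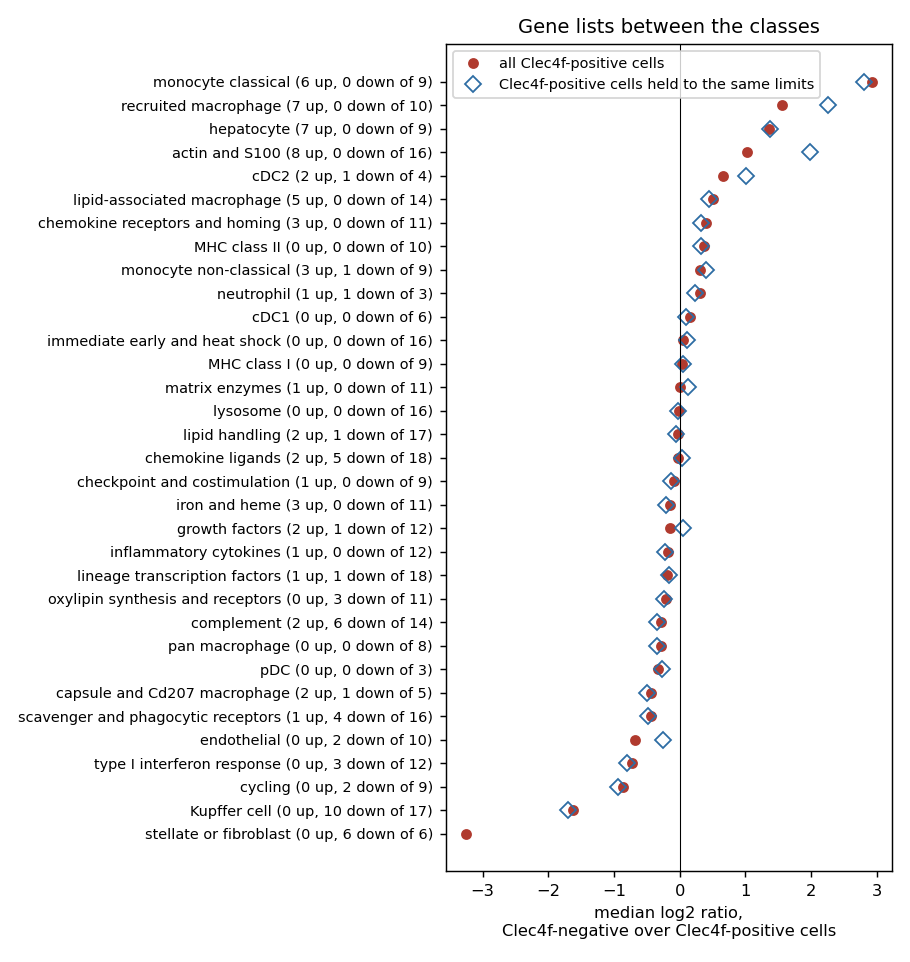
Median log2 ratio of members over Clec4f-positive cells (horizontal axis) for each gene list with at least 3 genes past the filter, with all Clec4f-positive cells (red) and with those held to the same limits (open diamonds). Numbers beside each list are genes at least 2-fold higher (up) and lower (down) of those past the filter against all Clec4f-positive cells. The classical monocyte list lies highest at 2.93, and the stellate list lowest at -3.25. Open diamonds are drawn only where at least 3 genes passed the filter under the same limits, which leaves out the stellate list, with 1.

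RNA of other liver cells was looked for beside these results. The hepatocyte list had 7 of 9 genes higher in members, with a summed level of 1310 CPM against 493 and 1447 in endothelial cells. Alb, serum albumin, was at 445 CPM against 127, with a median of 107 CPM over members and 49035 in the highest. Leaving out the 13 cells above brought the number of hepatocyte genes past the limit to 0, but 7 of those cells had been picked by the summed level of this same list, so that count was largely set by the choice. The summed endothelial list was at 387 CPM in members, 815 in Clec4f-positive cells and 11863 in endothelial cells, and the summed stellate list at 40, 361 and 1323. Neutrophil, T or NK and B or plasma lists summed to 113, 58.2 and 42.6 CPM in members, with 4, 4 and 3 of their genes at 0. A doublet caller marked 2 of the 367 members and 39 of the 682 Clec4f-positive cells.

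Signals that macrophages send were read next. Among 18 chemokine genes past the filter, 2 were at least 2-fold higher and 5 lower. Ccl8, an attractant of CCR8- and CCR2-bearing cells, was at 79.8 CPM against 24.4, and Pf4, better known from platelets, at 85.9 against 20.9. The Ccr2 ligand Ccl2 was lower in members, at 85.9 CPM where Clec4f-positive cells held 202. The same held for Ccl7 (20.6 CPM versus 44.1) and for the B-cell chemokine Cxcl13 (1.40 CPM versus 18.9). Ccr2 and Ccl2 thus lay on opposite sides of the comparison, whereas Ccl8 lay on the same side as Ccr2.

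Of 12 inflammatory genes, 1 was past the limit. Osm, oncostatin M, was at 23.6 CPM against 1.71 (ratio 13.8, 8.89 to 22.3). Il1b, interleukin-1 beta, was at 587 CPM against 316, a ratio of 1.86 (1.78 to 1.95), whereas Tnf, at 38.1 against 41.4, had an interval that included 1. Of 12 growth factor genes, 2 were past the limit on the higher side, Spp1 and Osm, and 1 on the lower side, Hbegf. Tgfb1, the main fibrogenic cytokine, was at 238 CPM against 222 and Pdgfb, a mitogen of stellate cells, at 83.7 against 72.6. Hbegf, a ligand of the EGF receptor, was at 71.1 CPM against 204.

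The study turned on oxylipins, lipid mediators made from polyunsaturated fatty acids, and on the enzymes and receptors of one of them, 12-HHTrE. Ptgs1, cyclooxygenase 1, was at 133 CPM (124 to 143) in members against 324 (314 to 333), 2.43-fold higher in Clec4f-positive cells. Its share was 17.9% of thinned members and 44.6% of thinned Clec4f-positive cells, with 24.5% in endothelial cells, which express the gene. Ptgs2, the inducible cyclooxygenase, was at 22.9 CPM (19.1 to 27.2) against 16.9. Tbxas1, thromboxane synthase, was at 116 CPM (108 to 125) against 134 (128 to 140), and at 1.39 in endothelial cells. The ratio of Tbxas1 was 0.868 (0.794 to 0.949), so it was slightly lower in members.

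RNA of Cyp1b1 and Cyp1a1, which the paper names as enzymes that make 12-HHTrE, was rare or absent. Cyp1b1 was at 0.524 CPM (3 UMIs in 367 cells) against 1.495, and Cyp1a1 had 0 UMIs in both classes, which allows up to 0.524 and 0.214 CPM. Ltb4r1, the high-affinity leukotriene B4 receptor, was at 6.29 CPM (4.40 to 8.71) against 0.997. Ltb4r2, the receptor of 12-HHTrE, was at 0.349 CPM in members with 2 UMIs and at 0.214 with 3 UMIs in Clec4f-positive cells, and a difference was not detectable at this depth. The oxylipin list held 20 genes, and those under the filter, such as Ltb4r1, were not counted. Of the 11 genes past the filter, 0 were higher and 3 were lower, Ptgs1, Ptgis and Ltc4s. Scd1 and Scd2, the desaturases that make monounsaturated fatty acids, were at 126 CPM against 270 and at 95.4 against 133.

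Members were then clustered among themselves, with the genes of the rule left out. This gave 9 clusters. A name was given from marker lists by a rule set after the data were seen, which left 3 clusters unnamed and joined 2 under 1 name. The genes that lead a cluster define it, so they are given as a description. The intervals of neighbouring shares overlap, so the order of the clusters by size is not firm.

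**Figure D4:**
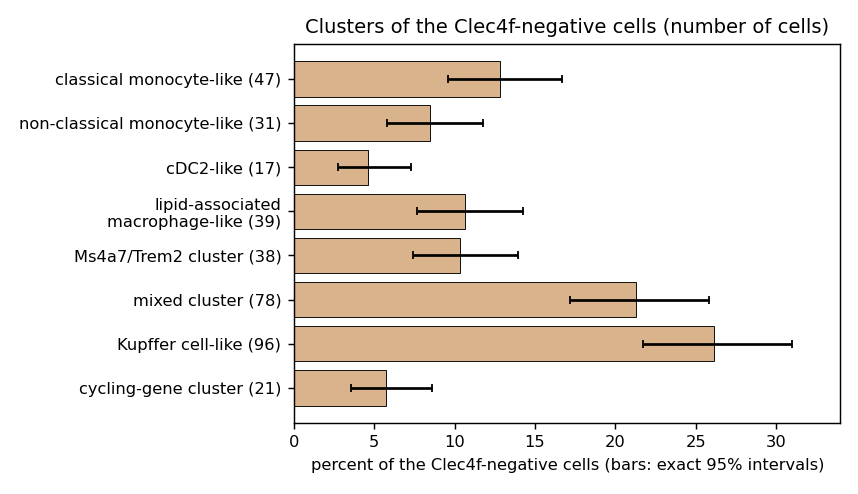
Share of the 367 Clec4f-negative cells in each cluster or pair of clusters (horizontal axis, percent) with exact 95% intervals, which cover counting error only, and the number of cells in brackets. Kupffer cell-like cells make up 26.2%, and the classical and non-classical monocyte-like clusters 12.8% and 8.45%.

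Classical monocyte-like cells numbered 47 (12.8%, 9.56 to 16.7%). Chil3 stood at 527 CPM in them against 6.65 in the other members, Ly6c2 at 315 against 11.02, Fn1, fibronectin, at 356 against 18.2 and Plac8 at 2264 against 188. Thbs1, thrombospondin 1, and F13a1, a clotting factor of monocytes, also led. Ccr2 was at 471 CPM and was found in 46.8% of these cells after thinning. They were not free of macrophage genes, with C1qa at 1620 CPM and H2-Aa at 6787 CPM, and Il1b, at 1993 CPM, had its highest level here among the named clusters.

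Non-classical monocyte-like cells numbered 31 (8.45%, 5.81 to 11.8%) and were the shallowest, at a median of 4898 UMIs. Ace, the angiotensin-converting enzyme, was at 545 CPM against 7.17 in other members, Spn, the sialoglycoprotein CD43, at 511 against 7.71, Pglyrp1 at 409 against 0.896 and Eno3, an enolase, at 280 against 8.07. Nr4a1, which these cells need, reached 1657 CPM against 343 in the classical cluster. The summed list of immediate early and heat shock genes was also highest here, at 30720 CPM against 17349 in the classical cluster. Whether the level of Nr4a1 followed that stress signal was not tested. S100a9 headed their list at 900 CPM, but in 1 of the 31 cells. C1qa was at 13.6 CPM and H2-Aa at 402 CPM, low beside every other cluster, and Ms4a7 had 0 UMIs where the floor was 20.5 CPM.

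A cluster of 17 cells (4.63%, 2.72 to 7.31%) was like type 2 conventional dendritic cells (cDC2), which prime CD4 T cells. At a lower clustering resolution 0 cells carried this name. Cd209a was at 613 CPM against 1.62 in other members, Clec10a at 243 against 6.48 and Flt3, the growth factor receptor of dendritic cells, at 98.4 against 0.720. Lyz2 was at 897 CPM there, C1qa at 145 CPM and H2-Aa at 7934 CPM. Siglech and Itgae, also among its leading genes, came from 2 cells each. They are on the lists of plasmacytoid and of type 1 conventional dendritic cells. These lists summed to 1186 and 1858 CPM in the cluster, beside 1916 CPM for the cDC2 list, so its dendritic cell signal was mixed. These cells met a rule written for macrophages and monocytes and had the macrophage genes Adgre1 and Mertk at 28.9 and 5.79 CPM, against 395 and 240.2 CPM in Kupffer cell-like cells.

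Lipid-associated macrophage-like cells numbered 39 (10.6%, 7.67 to 14.2%) and were deep, at a median of 25593 UMIs. Spp1 was at 1206 CPM against 60.5 in other members, Fabp5 at 6178 against 798, Mgll, monoglyceride lipase, at 322 against 33.2 and Atp6v0d2, a proton pump subunit of osteoclasts and foamy macrophages, at 593 against 89.5. Gpnmb reached 2499 CPM, Trem2 768 CPM and Ctsd, cathepsin D, 7767 CPM. Ccr2 was at 10.02 CPM and Cx3cr1 at 14.03 CPM, each the lowest level of the clusters. The name was not stable to the clustering, since 61 cells carried it at a lower resolution, 20 at a higher one and 0 after 2 marked doublets were removed.

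A second Trem2 cluster of 38 cells (10.4%, 7.43 to 13.9%) stayed unnamed. Ms4a7 was at 1160 CPM against 361 in other members, Trem2 at 908 against 363, H2-M2 at 419 against 110 and Hpgds, the hematopoietic prostaglandin D synthase, at 235 against 103. Apoe was at 61802 CPM and H2-Aa at 8396 CPM, whereas Spp1, at 196 CPM, was far below the lipid-associated cluster. Cx3cr1 was at 184 CPM there. Trem2 was found in 66.7% of these cells after thinning and in 64.1% of the lipid-associated cells.

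Kupffer cell-like cells numbered 96 (26.2%, 21.7 to 31.0%), with a median of 20382 UMIs. They were a joined pair of clusters of 54 and 42 cells. None had a Clec4f UMI by the rule, over 1998101 UMIs. Cd5l was at 7152 CPM in them against 7607 in Clec4f-positive cells, Slc40a1 at 1184 against 1212, Clec1b at 647 against 646 and Nr1h3, the oxysterol receptor LXR alpha, at 366 against 402. Other markers were far lower than in Clec4f-positive cells. Vsig4 was at 353 CPM against 1201, Folr2 at 262 against 882, Marco at 115 against 782 and Timd4 at 27.03 against 181. C6 was at 17.02 CPM against 295, 17.3-fold lower (12.4 to 25.1). Spic, at 201 CPM against 124, went the other way. Some Kupffer cell genes were thus within 10% of Clec4f-positive cells and others several-fold lower, and the origin of the cells was not measured.

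These same 96 cells differed from Clec4f-positive cells in genes of the other lists too. Trem2 was at 340 CPM against 128 (ratio 2.66, 2.43 to 2.91), Gpnmb at 691 against 295, Ms4a7 at 257 against 128 and Cx3cr1 at 74.1 against 17.7. Ccr2 was at 25.5 CPM against 7.55 and was found in 4.26% of the cells after thinning. S100a4 was at 2.002 CPM against 2.49, with an interval of the ratio from 0.207 to 2.25. Within the pair, cluster 6 was led by Marco (204 CPM, in 8 of 54 cells), Il10, Ccl2 and Cxcl2, and cluster 7 by Cd5l (7932 CPM) and Vsig4 (345 CPM).

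In the remaining clusters, the leading genes were those of other cells or of the cell cycle. The larger, 78 cells (21.3%, 17.2 to 25.8%), was led by endothelial genes such as Ptprb, Kdr and Clec4g, which came from at most 13 of its cells. Without its 6 cells rich in endothelial RNA, 72 remained, with Ptprb at 30.95 CPM in place of 200.2. Their summed endothelial list was at 306 CPM, beside 259 CPM in all members not rich in endothelial or hepatocyte RNA. These 72 had Cx3cr1 at 276 CPM, Ccr2 at 163 CPM, Cd74 at 21026 CPM and C1qa at 5122 CPM, with Cd5l at 1206 CPM and Vsig4 at 8.67 CPM. The last cluster, 21 cells (5.72%, 3.58 to 8.61%), was led by Top2a at 378 CPM, Pclaf and Birc5, which are expressed in dividing cells, and by Alb at 3605 CPM. Its median of 27314 UMIs was the highest of all, and 5 of its cells were rich in hepatocyte RNA.

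**Figure D5:**
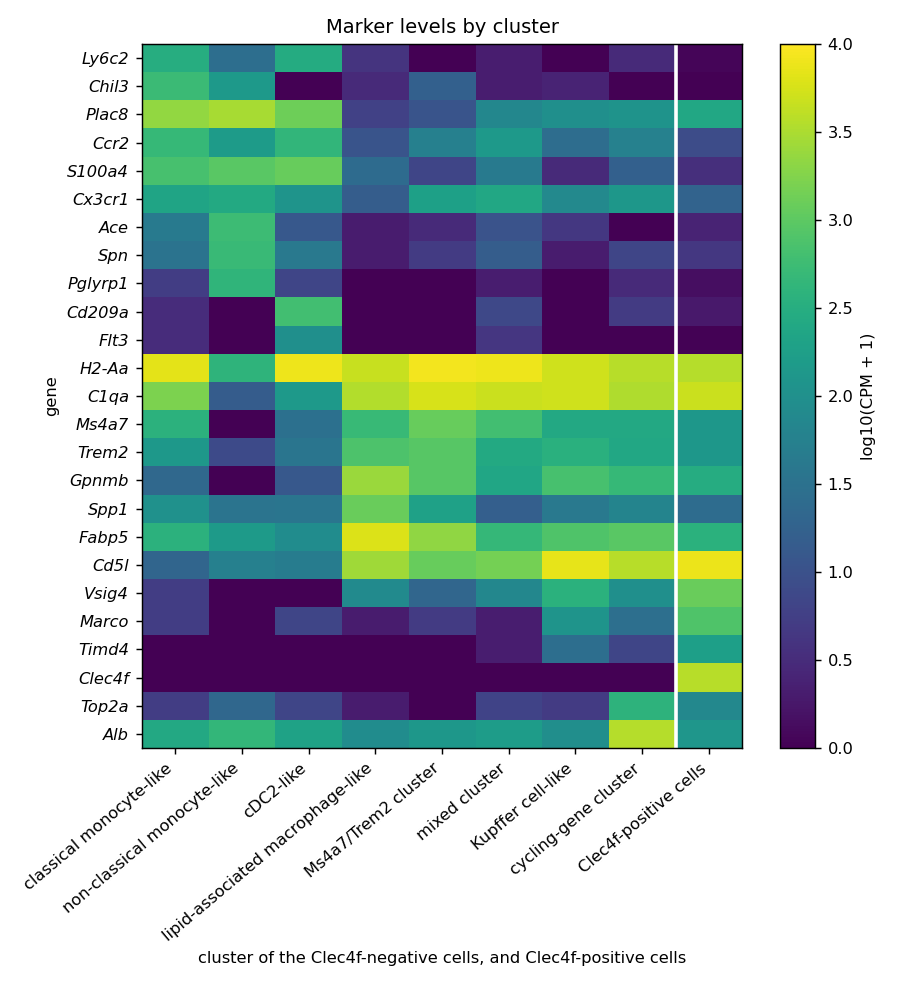
Levels of marker genes (rows) as log10(CPM + 1) in each cluster of the Clec4f-negative cells and, right of the white line, in the 682 Clec4f-positive cells. Ly6c2 and Chil3 are high in the classical monocyte-like column, Ace and Spn in the non-classical one, Gpnmb and Spp1 in the lipid-associated one, and Cd5l in the Kupffer cell-like and Clec4f-positive columns.

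Ccr2 and Cd5l were read together in single cells. Of the members, 114 had a Ccr2 UMI and under 10 Cd5l UMIs, 118 had 10 or more Cd5l UMIs and no Ccr2 UMI, 42 had both and 93 neither. Median depth differed between these sets, at 9354, 21257, 21417 and 9266 UMIs.

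Genes of cytokines and oxylipins were spread unevenly over the clusters. Ptgs1 was at 237 CPM in Kupffer cell-like cells, 132 in the unnamed 78-cell cluster and 58.7 in the unnamed Trem2 cluster. It was at 19.5 CPM in classical monocyte-like cells and at 0 UMIs in non-classical ones. Tbxas1 was at 161 CPM in Kupffer cell-like cells, 131 in the Trem2 cluster, 106 in lipid-associated macrophage-like and 49.9 in classical monocyte-like cells. Ptgs2 ran the other way, at 113 CPM in classical monocyte-like, 116 in cDC2-like and 9.51 in Kupffer cell-like cells. Alox5ap, the protein that feeds arachidonic acid to 5-lipoxygenase, was at 695 CPM in non-classical, 410 in classical and 61.1 in Kupffer cell-like cells, and Ltb4r1 at 61.4, 32.5 and 1.001. Of the cyclooxygenases, Ptgs1 was thus highest in Kupffer cell-like cells and Ptgs2 in cDC2-like and classical monocyte-like cells.

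MHC class II genes, which did not pass the limit over all members, spanned a wide range among the clusters. The summed list was at 49758 CPM in the unnamed Trem2 cluster, 43218 in cDC2-like and 39181 in classical monocyte-like cells. In the unnamed 78-cell cluster it was at 47001.5 CPM, and in the 72 of these cells not rich in endothelial RNA at 51023.5. Kupffer cell-like cells were at 29202, lipid-associated macrophage-like at 26604, the 21-cell cluster at 20754 and non-classical monocyte-like cells at 3552. Clec4f-positive cells were at 20665. Ccl8 was at 240 CPM in lipid-associated macrophage-like cells and 64.6 in Kupffer cell-like ones, Ccl2 at 132 CPM in Kupffer cell-like and 14.0 in lipid-associated ones, and Osm at 104 CPM in classical monocyte-like and 4.004 in Kupffer cell-like cells. Tgfb1 stayed between 151 and 334 CPM in every cluster.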

How the data were processed

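The authors sorted mouse liver cells and loaded 10x Genomics chips, aiming for 10000 cells in each library. The labels name both a v3.1 and a v2 kit, and which was used is not settled. The files deposited by the authors hold whole UMI counts for each gene in each barcode, made with Cell Ranger on mm10. Headers give version 6.1.2 for the library analysed here and 3.1.0 for the other 4. The submitters' processing notes give 3.1.0, so the header of this library differs from them. The library held 105670468 UMIs. Members and gene lists were chosen with earlier results of these data known, and lists chosen that way are not independent evidence.

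UMIs were summed per class in Python 3.11.15 (numpy 2.4.6, scipy 1.17.1, pandas 2.3.3), with exact Poisson, conditional binomial and Clopper-Pearson 95% intervals. With 1 library per group, no test was made, and intervals cover counting error only. Genes were named by rule as the 15 highest and 15 lowest ratios after adding 5 CPM, at a mean of 20 CPM or more, leaving out rule genes and mitochondrial, ribosomal, histone, globin, immunoglobulin and unnamed genes. Of 413 list genes, 1 was not matched, and 99.6% of identifiers were found in GENCODE M21 (GRCm38). Clusters were made with scanpy 1.11.5 (2000 variable genes, 20 components, 15 neighbours, Leiden resolution 0.8, seed 7), with their 10 leading genes at 50 CPM or more, and Scrublet marked 235 of 9870 cells as doublets, which stayed in. Clusters were named after the marker list with most of the 10 leading genes, given at least 2 of them and at least 3 list genes in 25% of cells, a rule chosen after seeing the data. Normalization factors came from edgeR 4.0.16 (R 4.3.3). Ratios and intervals were tried on simulated counts with counting error only. Variation between cells was not simulated, so the trial does not bear on it. Promoters are from RefSeq.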

Additional observations from a re-analysis of the deposited data

How the results depend on the processing

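No paired analysis was possible because each group was 1 library and no test was made. The number of members stayed within 1.5 times of 367 under all 8 other limits tried. Of 142 genes at least 2-fold higher and 278 lower, counts became 1222 and 1538 without a filter on low values, 311 and 547 with cells thinned to 2000 UMIs, and 218 higher with the mean over cells. Without a filter 11 lists in place of 6 had a median log2 ratio of 0.5 or more. With Clec4f-positive cells held to the same limits, 170 genes were lower, and lists with a median of -0.5 or less numbered 3 in place of 5. No direction of a gene named by rule reversed under any alternative. At a Leiden resolution of 0.4, cDC2-like cells numbered 0, lipid-associated macrophage-like cells 61 and unnamed cells 88. Lipid-associated macrophage-like cells numbered 20 at a resolution of 1.2 and 0 without the doublets marked. The cause was not tested. Shares of members with Ccr2 were 42.5% not thinned and 24.8% thinned to 4000 UMIs, with Cx3cr1 46.3% and 30.8%, with Trem2 62.1% and 50.2%, and with Cd5l 62.1% not thinned, since deeper cells yield a gene more often. Leaving out cells rich in endothelial or hepatocyte RNA, cDC2-like or Kupffer cell-like members was added after seeing the data. Without Kupffer cell-like members, 206 genes were higher and 403 lower. Depth limits the rare genes, since the floor was 0.524 CPM over members and 20.5 CPM in the non-classical monocyte-like cluster.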

Other observations

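Marker genes of the dendritic, lymphocyte and granulocyte lists were read for what else the rule let in. Ighm, an immunoglobulin heavy chain, was the single B or plasma list gene past the filter (24.8 CPM against 0.356, found in 74 members), and Il7r the single T or NK list gene, with Il7r at 226.5 CPM in the lipid-associated macrophage-like cluster and 15.9 CPM in the other members. S100a8 was lower in members, at 46.99 CPM against 150.5, and S100a9 stood at 23.4 against 0.926 CPM. That level of S100a9 rested on 1 cell of the non-classical monocyte-like cluster, since 364 of 367 members had none and members outside that cluster were at 0.359 CPM.

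Some genes outside the comparisons above were uneven among the clusters. Mmp12, an elastase of macrophages, was at 2843 CPM in lipid-associated macrophage-like, 1257 in Kupffer cell-like and 54.2 in classical monocyte-like cells. Arg1 was at 61.1 CPM in the lipid-associated cluster, but from 2 of its 39 cells. Fabp4 was at 644 CPM in that cluster and 416 in the non-classical one.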
